A study of Homo sapiens with 8 samples.

Results

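Peaks of histone H3 acetylated at lysine 9 (H3K9ac) and of histone H4 acetylated at lysine 16 (H4K16ac) were set beside each other in untreated KGN cells, and protein-coding genes were sorted by the marks at their start and inside them. KGN is an established line from a human ovarian granulosa cell tumour, which stands in for the cells that surround the oocyte and make steroid hormones. The study set control cells, cultured for 6 h without butyrate, against cells given 1 mM butyrate. Of its 8 samples, 2 are used here, the control H3K9ac library and the control H4K16ac library. There is 1 library per mark and no replicate, so no p-value is given, each difference is a difference between these 2 libraries, and intervals cover counting of genes or peaks only. A single tumour line also limits what these counts say of granulosa cells in the ovary.

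Lysine acetylation removes a positive charge from the histone tail and is read by bromodomain proteins. H3K9ac is laid down mainly by the GCN5 and PCAF enzymes (KAT2A and KAT2B) and is known as a mark of the nucleosomes around active promoters. H4K16ac is laid down mainly by KAT8 (MOF), which works in the MSL and NSL complexes. It is known for loosening the packing of nucleosomes and for its place in the bodies of active genes.

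The H3K9ac list held 22215 merged peaks covering 20.3 Mb and the H4K16ac list 73586 peaks covering 30.7 Mb. A merged peak joins all rows of a list that share bases, on chromosomes 1 to 22 and X. The H3K9ac peaks were the wider and taller ones. Their median width was 666 bp (quartiles 363 to 1239), against 356 bp (277 to 478) for H4K16ac. The number of fragments stacked at the summit was recovered from the deposited fold and p of each peak. Its median was 21 (14 to 29) for H3K9ac and 9 (8 to 10) for H4K16ac. The sequencing depth implied by the local background was 24.3 M and 17.4 M reads. The lists also stop at different limits. H3K9ac peaks run to a q of 0.05, while H4K16ac peaks run to a p of 0.005, at which q reached 0.304 and only 39.6% of the peaks had a q of 0.05 or less. Of 5 peaks in the control library of nonspecific immunoglobulin, 4 overlapped an H3K9ac peak and 0 an H4K16ac peak. In the list labelled H4K16ac, peaks are named with k12 rather than k16, and the files do not allow a check of the antibody's target.

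A gene had a mark at its start when a peak reached within 1 kb of the start, either the one in the authors' annotation or the RefSeq one. In a gene with both marks these could thus lie at different starts, and such genes were not counted apart. The authors' start was read from the rows of these 2 peak lists, which name the closest gene start. It is thus known only for genes named by a peak, 11691 of 19974. Genes near peaks could be tried at 1 more start than genes without, which favours the marked classes. By how much was not tested. Of 19846 protein-coding genes sorted, 3320 (16.7%, exact Clopper-Pearson 95% interval 16.2 to 17.3) had both marks at the start. H3K9ac alone was at the start of 7469 genes (37.6%), H4K16ac alone at 390 (1.97%) and neither at 8667 (43.7%). H3K9ac was thus at 10789 starts in all (54.4%) and H4K16ac at 3710 (18.7%). Most starts with H4K16ac also had H3K9ac, and most starts with H3K9ac lacked H4K16ac. Neighbouring genes can share a start peak, as 27.6% of the genes with H3K9ac and 23.5% of those with H4K16ac did. Of the 390 genes with H4K16ac alone, 22 had H3K9ac at another RefSeq start of the same gene.

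Promoter sequence differed between the classes in its content of CpG, the dinucleotide that is methylated in most of the genome and kept unmethylated in CpG islands. The RefSeq bases (GRCh38.p14) just before the RefSeq start are printed below for 7 genes, 250 bases each, 5′ to 3′ on the gene's strand, with every CG in capitals. They show the contrast in CpG content, with CYP11A1 set apart because its H4K16ac peak counted at the authors' start alone. RFC4 (chr3:186806483-186806732, minus strand) and MYL12B (chr18:3261883-3262132, plus strand) had both marks at the start. RFC4 is a subunit of the clamp loader of DNA replication, and MYL12B a regulatory light chain of myosin. MIS12 (chr17:5486124-5486373, plus strand), a kinetochore protein, and RPS14 (chr5:150449740-150449989, minus strand), a protein of the small ribosomal subunit, had H3K9ac alone. AMHR2 (chr12:53423605-53423854, plus strand), the receptor of anti-Müllerian hormone, and COL17A1 (chr10:104085881-104086130, minus strand), a collagen of epithelial hemidesmosomes, had H4K16ac alone. CYP11A1 (chr15:74367647-74367896, minus strand), the cholesterol side-chain cleavage enzyme, had both marks, in peaks that lay downstream of the printed bases. Its H4K16ac peak (chr15:74365338-74365972) counted through the authors' start, not through the RefSeq start that follows the printed bases. The few CpG printed are therefore not those of the start at which both marks counted.
RFC4: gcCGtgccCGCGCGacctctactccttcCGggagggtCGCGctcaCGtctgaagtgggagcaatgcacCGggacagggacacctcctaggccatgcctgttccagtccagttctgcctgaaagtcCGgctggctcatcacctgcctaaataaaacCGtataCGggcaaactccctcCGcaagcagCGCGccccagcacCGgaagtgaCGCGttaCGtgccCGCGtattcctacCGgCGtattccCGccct
MYL12B: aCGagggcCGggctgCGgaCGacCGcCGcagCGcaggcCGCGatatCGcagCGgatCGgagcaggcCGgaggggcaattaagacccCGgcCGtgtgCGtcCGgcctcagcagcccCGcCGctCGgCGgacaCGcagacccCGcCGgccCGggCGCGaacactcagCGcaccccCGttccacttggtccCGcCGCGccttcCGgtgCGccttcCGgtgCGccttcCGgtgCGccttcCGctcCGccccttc
MIS12: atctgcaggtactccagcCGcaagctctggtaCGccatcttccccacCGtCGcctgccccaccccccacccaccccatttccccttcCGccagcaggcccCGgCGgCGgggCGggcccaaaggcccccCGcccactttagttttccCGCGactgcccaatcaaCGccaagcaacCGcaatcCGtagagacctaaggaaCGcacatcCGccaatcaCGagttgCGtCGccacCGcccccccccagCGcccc
RPS14: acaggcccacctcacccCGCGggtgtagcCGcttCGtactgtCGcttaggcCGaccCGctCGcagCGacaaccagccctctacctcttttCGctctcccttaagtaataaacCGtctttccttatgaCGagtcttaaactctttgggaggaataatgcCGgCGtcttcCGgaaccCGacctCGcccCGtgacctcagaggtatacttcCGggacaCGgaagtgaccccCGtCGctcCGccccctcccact
AMHR2: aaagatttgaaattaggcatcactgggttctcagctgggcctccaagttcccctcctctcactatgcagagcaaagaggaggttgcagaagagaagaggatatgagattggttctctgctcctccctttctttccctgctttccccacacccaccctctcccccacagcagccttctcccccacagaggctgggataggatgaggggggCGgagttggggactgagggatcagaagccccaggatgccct
COL17A1: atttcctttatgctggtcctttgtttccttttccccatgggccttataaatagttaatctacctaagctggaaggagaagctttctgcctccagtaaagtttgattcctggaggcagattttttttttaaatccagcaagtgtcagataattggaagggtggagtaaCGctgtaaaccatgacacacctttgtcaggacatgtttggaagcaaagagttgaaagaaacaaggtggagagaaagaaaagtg
CYP11A1: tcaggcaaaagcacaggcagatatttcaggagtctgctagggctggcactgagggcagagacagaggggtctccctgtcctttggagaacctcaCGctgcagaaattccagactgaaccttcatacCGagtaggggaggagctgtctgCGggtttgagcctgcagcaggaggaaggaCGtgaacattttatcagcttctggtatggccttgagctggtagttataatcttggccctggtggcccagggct

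The H4K16ac peak of RFC4 (chr3:186806654-186807014) lay over the printed bases farthest from the start, and that of AMHR2 (chr12:53423390-53423799) over all but the bases next to the start. The printed stretches held 24 CpG in RFC4, 40 in MYL12B, 22 in MIS12 and 23 in RPS14. AMHR2 and COL17A1 held 1 each, and CYP11A1 held 4. The same contrast ran through the classes. RefSeq promoter sequence of 300 bases, 250 before the start and 50 after it, was matched to 15811 of the 19846 genes. It was taken by the RefSeq start, also in genes whose mark counted through the authors' start. The median number of CpG was 26 in genes with both marks and 28 with H3K9ac alone, against 5 with H4K16ac alone and 9 with neither. CpG-rich here means an observed over expected CpG ratio of at least 0.6 and a G+C share of at least 50%. Of the promoters with both marks 83.8% were CpG-rich (82.4 to 85.2), of those with H3K9ac alone 85.3% (84.4 to 86.2), of those with H4K16ac alone 13.6% (9.82 to 18.2) and of those with neither 34.7%, beside 63.1% of all matched promoters. CpG content separated starts with H3K9ac from starts without it, but among starts with H3K9ac it hardly separated those with H4K16ac from those without. H4K16ac was there at 31.0% of the CpG-rich starts with H3K9ac (29.98 to 32.1) and at 33.5% of the others (31.0 to 36.0).

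A few short motifs were searched on both strands of the 300 bases, as a description only. TATAAA, the TATA box, was in 5.16% of promoters with both marks, 5.12% with H3K9ac alone, 14.7% with H4K16ac alone and 16.04% with neither, beside 9.75% of all. GGGCGG, the GC box bound by SP1, was in 69.1%, 74.3%, 29.8% and 39.4% of the same classes, beside 58.3% of all. CCGGAAGT, an ETS factor motif, was in 12.9% with both marks and 8.70% with H3K9ac alone, in 0 of 279 with H4K16ac alone and in 1.04% with neither, beside 6.17% of all. The RFC4 stretch above holds it as printed and the RPS14 stretch on the other strand. TGACTCA, the AP-1 motif, was in 3.48%, 2.28%, 8.96% and 4.76%, beside 3.62% of all. CCAAT, the CCAAT box, was in 34.1% to 37.9% of each class, beside 36.4% of all. The NRF1 motif, a palindrome with CpG in it, was in 2.91%, 2.60%, 0 of 279 and 0.542%, beside 1.77% of all. TGACGTCA, the cyclic AMP response element, was in 3.65%, 3.32%, 1.08% and 1.41%, beside 2.56% of all. The long motifs with CpG in them were thus rare where CpG were few, and whether they differ beyond CpG content was not tested.

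**Figure D1:**
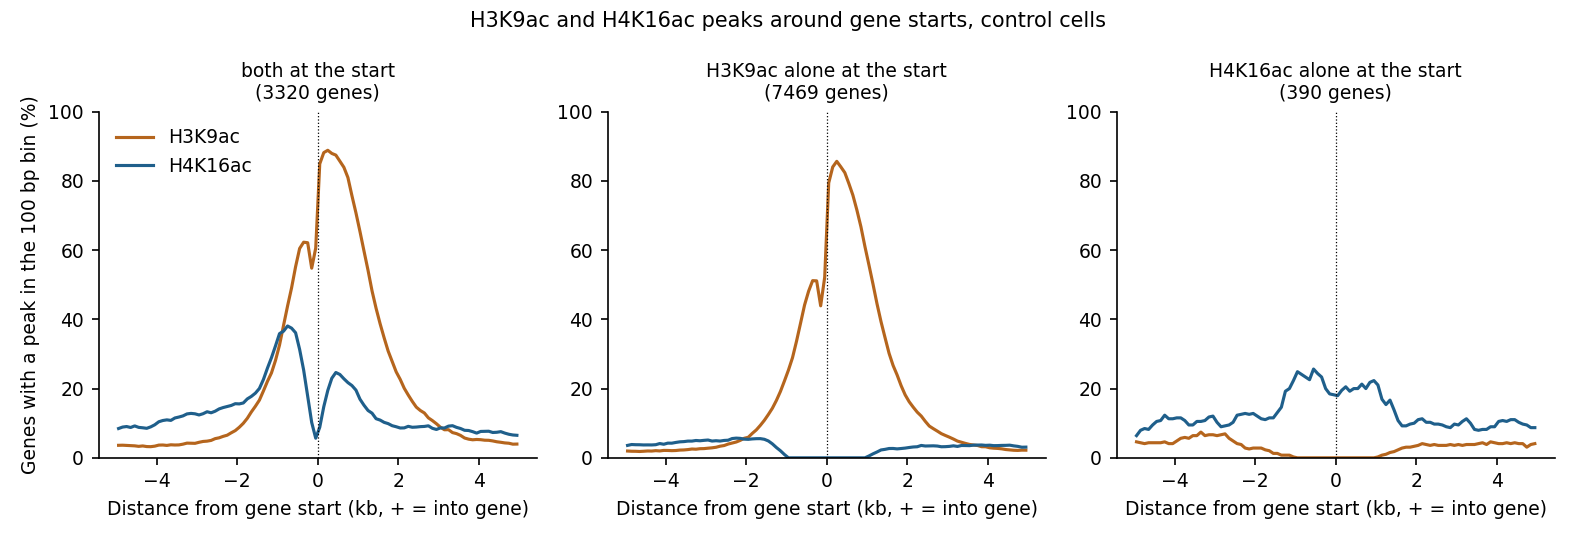
Share of genes with an H3K9ac or H4K16ac peak in each 100 bp bin around the RefSeq start, in percent of the genes of each start class, from 5 kb before to 5 kb after the start. In genes with both marks H3K9ac is highest 200 to 300 bp into the gene (88.8%), where H4K16ac is at 19.5%. H4K16ac is lowest in the 100 bp before the start (5.66%), between an upstream maximum (38.1%) and a downstream one (24.6%).

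Where both marks were at a start, their peaks mostly overlapped but their summits lay apart. In the plot of peaks around the start, H3K9ac was most frequent 200 to 300 bp into the gene, at 88.8% of the genes with both marks, with a lower shoulder of 62.3% upstream. H4K16ac was most frequent 700 to 800 bp before the start, at 38.1%, and fell to 5.66% in the last 100 bp before it. It was at 8.83% in the first 100 bp of the gene and rose again to 24.6% at 400 to 500 bp. The summits gave the same order. The median H3K9ac summit was 184 bp into the gene and the median H4K16ac summit 362 bp before the start. Each summit was measured from the start nearer to it, the authors' or the RefSeq one. The summits of a gene could thus be measured from different starts. Only 3.43% of the H4K16ac summits lay within 150 bp of the start, against 16.8% of the H3K9ac summits. Of the H4K16ac summits 57.7% lay more than 150 bp upstream and 38.9% more than 150 bp downstream, and for H3K9ac the order was turned round, with 21.6% upstream and 61.7% downstream.

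The peaks themselves overlapped at 2394 of the 3320 genes (72.1%). Genes whose marks lay at different starts are among the 3320. In MRPS27 the strongest start peaks were chr5:72319348-72320183 for H3K9ac and chr5:72227628-72228758 for H4K16ac. Such genes also enter the counts of widths and edges that follow. The H3K9ac peak was the wider one at 93.8% of the genes, with a median width ratio of 3.19. The H4K16ac summit fell inside the H3K9ac peak at 1363 genes (41.1%), beyond its upstream edge at 1415 (42.6%) and beyond its downstream edge at 542 (16.3%). RPL37, a protein of the large ribosomal subunit, shows the upstream form. Its H3K9ac summit held 56 fragments 282 bp into the gene and its H4K16ac summit 25 fragments 326 bp before the start, in peaks that did not overlap. ACTB, which encodes beta-actin, had the same form, with 55 H3K9ac fragments 248 bp into the gene and 14 H4K16ac fragments 352 bp upstream. BRD2, a bromodomain reader of acetylated histones, shows the overlapping form. Its H4K16ac peak of 2128 bp lay within an H3K9ac peak of 4051 bp, with the H4K16ac summit of 17 fragments 1871 bp into the gene and the H3K9ac summit of 44 fragments at 111 bp. Genes with an opposite start within 2 kb upstream had H4K16ac at 32.3% of their H3K9ac starts (30.8 to 33.9) and other genes at 30.1% (29.0 to 31.1). A divergent neighbour thus went with little difference in the share, though fewer of its H4K16ac summits lay upstream, 51.8% against 60.7%.

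H4K16ac was found more often where the H3K9ac summit was taller. The H3K9ac starts were ordered by the fragments at the summit and split into 5 equal groups. In the lowest group (8 to 20 fragments), 12.3% also had H4K16ac (10.97 to 13.8). The share was 22.7%, 32.9% and 38.3% in the next groups and 47.7% (45.6 to 49.8) in the highest, with 35 to 109 fragments. By H3K9ac peak width it went from 17.2% in the narrowest of 5 groups to 42.9% in the widest. The median H3K9ac summit held 31 fragments (quartiles 26 to 37) with H4K16ac and 26 (20 to 32) without it. The H4K16ac summits themselves differed little, with a median of 10 fragments beside H3K9ac and 9 alone. A q of 0.05 or less was reached by 57.0% of the H4K16ac start peaks beside H3K9ac (55.3 to 58.7) and by 45.4% of those alone (40.4 to 50.5). At a limit of q 0.05 in both lists, 1894 genes had both marks at the start and 177 had H4K16ac alone, and with the lists brought to equal numbers of peaks 1617 and 126.

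Over all peaks the marks were placed in different parts of the gene. At starts lay 61.6% of the H3K9ac peaks (60.9 to 62.2) and 5.72% of the H4K16ac peaks (5.55 to 5.89). Inside genes, from 1 kb past the start to the end, lay 25.9% of the H3K9ac and 68.7% of the H4K16ac peaks, and between genes 12.6% and 25.6%. Starts hold far fewer bases than gene insides, and these shares are not scaled by bases. Of all 18519 genes with a strand, 7.32% had H4K16ac in the 100 bp bin 700 to 800 bp upstream and 1.40% in the bin just before the start. The mean bin share at 4 to 5 kb was 3.77% upstream and 3.33% downstream. The H3K9ac share at starts rose with the strength of the peak, from 27.03% in the weakest 25% of the list to 87.9% in the strongest 25%, by the authors' deposited p. For H4K16ac it was 4.53% and 8.05%, so that strong H4K16ac peaks also lay mostly inside genes (64.9%). H3K9ac peaks at starts were wide and tall, with medians of 951 bp and 25 fragments, against 391 bp and 14 inside genes. H4K16ac peaks had about the same size everywhere, with medians of 397 bp at starts and 352 bp inside and 9 fragments in both places. Some 17.0% of the H3K9ac peaks (3779) overlapped an H4K16ac peak, and 5.60% of the H4K16ac peaks (4121) an H3K9ac peak. The H4K16ac overlap was mostly at starts, where 56.7% of the H4K16ac peaks touched H3K9ac, against 2.02% inside genes. The median H4K16ac peak inside a gene was 27.8 kb from the nearest H3K9ac peak.

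Inside genes, 2629 of the 18614 genes of at least 2 kb had both marks (14.1%), 1044 had H3K9ac alone (5.61%), 5973 had H4K16ac alone (32.1%) and 8968 had neither (48.2%). H3K9ac was inside 3673 genes (19.7%) and H4K16ac inside 8602 (46.2%). The order of the classes was thus the reverse of that at the start, where H3K9ac alone was common and H4K16ac alone was rare. The counts depend on what counts as inside. With a start window of 2.5 kb, 493 genes had H3K9ac alone inside and 1464 had both, and with equal numbers of peaks H4K16ac alone was inside 3510.

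H4K16ac inside a gene went with H3K9ac at its start. Of the genes with H3K9ac at the start 66.0% had an H4K16ac peak inside (65.0 to 66.9), against 20.5% (19.6 to 21.4) of the genes without. By start class this share was 73.0% with both marks at the start, 62.8% with H3K9ac alone, 64.3% with H4K16ac alone and 18.4% with neither. Longer genes offer more room to a peak, so the shares were also taken by gene length. With H3K9ac at the start, 26.8% of genes of 2 to 10 kb, 59.3% of 10 to 30 kb, 82.7% of 30 to 100 kb and 87.4% of 100 kb or more had H4K16ac inside. Without it the shares were 8.76%, 21.2%, 28.3% and 28.2%. The gap was there in each length class, and a gene of 100 kb or more with H3K9ac at the start and H4K16ac inside had a median of 11 H4K16ac peaks. For H3K9ac inside, the shares ran from 24.6% to 32.6% over the same length classes with H3K9ac at the start and from 2.39% to 13.2% without.

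**Figure D2:**
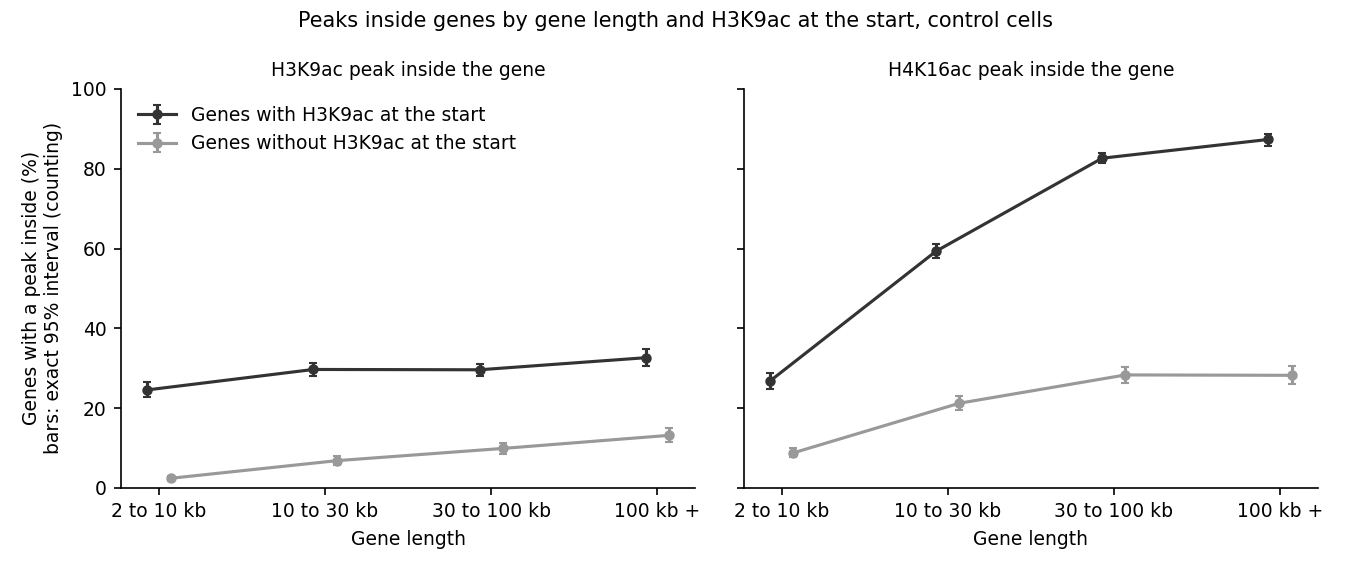
Share of genes with an H3K9ac peak (left) or an H4K16ac peak (right) inside the gene, in percent, for 4 classes of gene length, with exact 95% intervals that cover counting only. Dark points are genes with H3K9ac at the start and grey points genes without; the H4K16ac share with H3K9ac at the start climbs from 26.8% to 87.4%.

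Along the gene, H3K9ac fell away from the start, while H4K16ac changed little in genes of at least 10 kb with H3K9ac at the start. In the 8543 genes of at least 10 kb with H3K9ac at the start, H3K9ac peaks covered 49.6% of the bases of the first 5% of the gene, 2.22% of the stretch from 20 to 25% and 0.436% of that from 80 to 85%. H4K16ac covered 4.25%, 3.41% and 3.46% of the same stretches. The lines for the 2 marks cross between 15 and 25% of the gene's length. Among these genes, the 1842 of 100 kb or more had more H4K16ac towards the end. It covered 2.73% of their first 5%, 2.16% from 5 to 10% and 3.37% from 90 to 95%. In the 4979 genes without H3K9ac at the start, H4K16ac covered 0.762% of the first 5%, 1.005% from 20 to 25%, 1.25% from 80 to 85% and 1.47% from 95 to 100%. Of H3K9ac peaks inside genes, 50.3% lay in the first 25% of the gene and 49.2% within 5 kb of the start, with a median distance of 5.22 kb. Of H4K16ac peaks 20.4%, 24.1%, 26.8% and 28.6% lay in the successive 25% stretches of the gene, 7.40% within 5 kb, and the median distance was 44.5 kb. The authors' deposited annotation put 38.2% of the inside H3K9ac peaks in a first intron and 35.1% in a later one. For H4K16ac their table gave 14.04% and 68.1%. Exons other than the last held 3.99% of the H3K9ac and 3.07% of the H4K16ac inside peaks in that annotation.

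**Figure D3:**
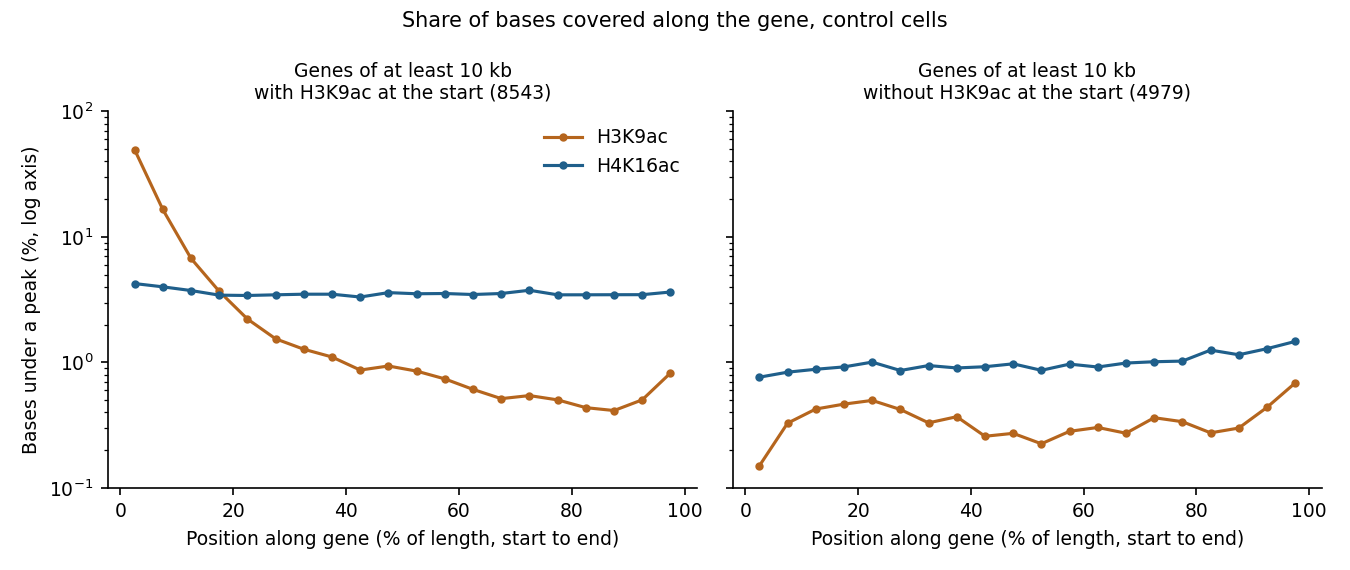
Percent of bases under a peak, on a log axis, in 20 equal parts from the start to the end of genes of at least 10 kb, with H3K9ac at the start (left, 8543 genes) and without (right, 4979 genes). H3K9ac falls from 49.6% in the first part to 0.436% at 80 to 85% of the length, while H4K16ac stays between 3% and 5% on the left.

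Genes whose proteins every cell needs filled the classes with H3K9ac. All 79 genes of cytosolic ribosomal proteins had H3K9ac at the start, 47 of them with H4K16ac as well (59.5%). Among all genes with H3K9ac at the start, 30.8% had H4K16ac. Mitochondrial ribosomal proteins had both marks at 39 of 77 genes, H3K9ac alone at 36 and neither at 2. Subunits of the respiratory chain had both at 33 of 78 and H3K9ac alone at 42. Splicing factors had both at 36 of 77 and H3K9ac alone at 34. The 33 aminoacyl-tRNA synthetases, which charge transfer RNAs, split into 15 with both and 18 with H3K9ac alone. Their H3K9ac summits had list medians of 30 to 34 fragments, beside 28 over all genes with H3K9ac at the start. Their H4K16ac summits had list medians of 9 or 10, beside 9. The members with the strongest H4K16ac included MRPS15 of the mitochondrial ribosome, with 28 and 15 fragments of H3K9ac and H4K16ac, and SNRPA of the U1 snRNP with 28 and 16. In these 5 lists 44.0% to 59.5% of the H3K9ac starts had H4K16ac, beside the 30.8% over all genes. The H3K9ac summits were also taller, and their part in the counts was not tested.

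Nearly all genes of the transcription machinery, DNA replication and the cell cycle had H3K9ac at the start. Over all genes 16.7% had both marks, 37.6% H3K9ac alone and 43.7% neither. Of 69 genes of RNA polymerase II, TFIID and Mediator, 51 had H3K9ac alone at the start (73.9%), 17 had both (24.6%) and 1 had neither. Of their 68 H3K9ac starts 17 had H4K16ac, not far from the 30.8% over all genes. MED10, a Mediator subunit, had 68 H3K9ac fragments at its start and no H4K16ac in the gene, and TAF9 of TFIID had 42 and none at its start. The list's H3K9ac median was 28 fragments, the same as over all genes. DNA replication genes had both at 14 of 40 (35.0%) and H3K9ac alone at 25 (62.5%), and 35.9% of their H3K9ac starts had H4K16ac, again near the share over all genes. RFC4 had 43 and 17 fragments and MCM7, a subunit of the replicative helicase, 38 and 15, while FEN1, the flap endonuclease, had 38 of H3K9ac and no H4K16ac at its start. Cell cycle genes had both at 13 of 30 (43.3%) and H3K9ac alone at 16 (53.3%), with H4K16ac at 44.8% of the H3K9ac starts. CDKN1B, the inhibitor p27, had 45 and 17 fragments. CCNB1, which encodes cyclin B1, had 32 of H3K9ac alone, and CDKN1A, the inhibitor p21, also had 32 and no H4K16ac in the gene. The 39 proteasome subunits had both at 13 (33.3%) and H3K9ac alone at 22 (56.4%), with H4K16ac at 37.1% of the H3K9ac starts. The 55 translation initiation factors had both at 20 (36.4%) and H3K9ac alone at 27 (49.1%), with 42.6% of the H3K9ac starts.

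The enzymes that write, read and remove acetylation all lay in marked classes but 1. Over all genes 16.7% had both marks at the start, 37.6% H3K9ac alone and 43.7% neither. Of 23 acetyltransferases and acetyl readers, 7 had both marks and 16 H3K9ac alone, so that 30.4% of the H3K9ac starts had H4K16ac, close to the 30.8% over all genes. The writers of H4K16ac split evenly, with 6 of the 12 members of the MSL and NSL complexes in each class. MSL1 had 31 and 14 fragments. KAT8, the catalytic subunit, had 26 of H3K9ac and no H4K16ac at its start, with 4 H4K16ac peaks inside. MSL2 had 47 of H3K9ac and no H4K16ac peak at the start or inside. EP300 had 28 and 10 fragments, and its relative CREBBP 44 of H3K9ac alone. Of 18 deacetylases and sirtuins, 6 had both, 11 H3K9ac alone and 1 neither. H4K16ac was at 35.3% of their H3K9ac starts, near the 30.8% over all genes. HDAC7 had 36 and 19 fragments, and HDAC1 had 21 of H3K9ac alone with 5 H4K16ac peaks inside.

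Cytosolic ribosomal protein and splicing factor genes had H4K16ac inside at a smaller share and H3K9ac inside at a larger share than the genes set beside them. Those were genes with H3K9ac at the start in the length class of the list's median. Members of other lengths were kept in the lists. Cytosolic ribosomal protein genes had H4K16ac inside at 5 of 73 (6.85%) and H3K9ac inside at 38 (52.1%). These are short genes, with a median length of 5.01 kb, and genes of 2 to 10 kb with H3K9ac at the start had H4K16ac inside at 26.8% and H3K9ac inside at 24.6%. Splicing factors, with a median length of 15.96 kb, had H4K16ac inside at 25 of 73 (34.2%) and H3K9ac at 32 (43.8%), beside 59.3% and 29.7% of genes of 10 to 30 kb with H3K9ac at the start. Aminoacyl-tRNA synthetase genes, with a median length of 33.9 kb, had H4K16ac inside at 30 of 33 (90.9%) and H3K9ac at 10 (30.3%), near the 82.7% and 29.6% at 30 to 100 kb. FARS2, a mitochondrial synthetase, had 31 H4K16ac peaks inside. Whether these lists differ from other genes of their length was not tested.

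**Figure D4:**
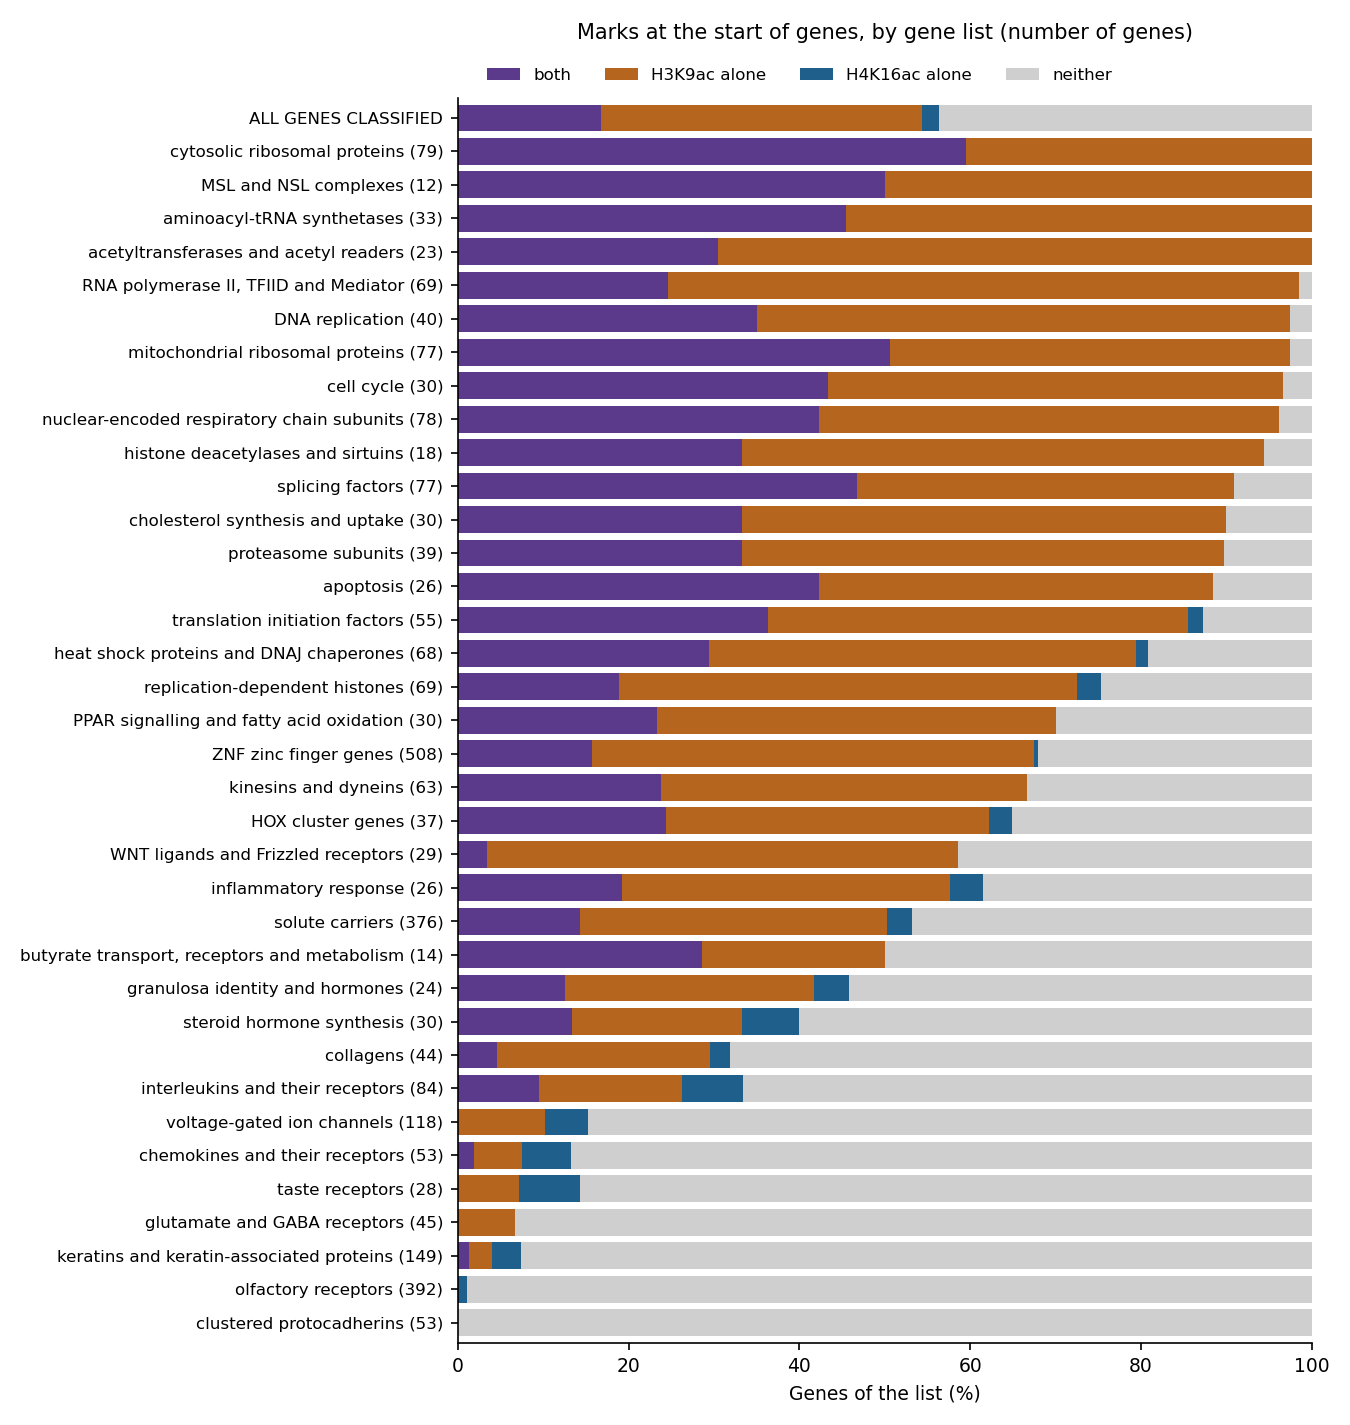
Start classes of 36 gene lists and of all 19846 genes, as percent of the genes in each list, with the number of genes in brackets. Cytosolic ribosomal proteins have both marks at 59.5% of their starts, and olfactory receptors and protocadherins lie almost entirely in the class with neither.

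Larger families held a mixture, and several lay close to the shares over all genes (16.7% both, 37.6% H3K9ac alone, 1.97% H4K16ac alone, 43.7% neither). Replication-dependent histone genes, which lie in clusters and have near-identical copies, had both marks at 13 of 69 starts (18.8%), H3K9ac alone at 37 (53.6%), H4K16ac alone at 2 and neither at 17. Heat shock proteins and DNAJ chaperones had both at 20 of 68 (29.4%) and H3K9ac alone at 34. Solute carriers, which move nutrients and ions across membranes, had both at 54 of 376 (14.4%), H3K9ac alone at 135 (35.9%), H4K16ac alone at 11 (2.93%) and neither at 176 (46.8%), each close to all genes. SLC7A5, a carrier of large neutral amino acids, had 52 H3K9ac fragments at its start, with 17 H3K9ac and 0 H4K16ac peaks inside. Kinesins and dyneins, the motors of microtubules, had both at 15 of 63 (23.8%) and H4K16ac inside at 46 (73.0%), beside 46.2% of all genes. Their median length was 81.3 kb. Genes of 30 to 100 kb had H4K16ac inside at 63.85%, and those of them with H3K9ac at the start at 82.7%.

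Zinc finger genes on chromosome 19 had H3K9ac at many starts but little H4K16ac, and those on other chromosomes were close to other genes in H4K16ac. H3K9ac was at the start of 59.35% of the ZNF genes on chromosome 19 and 75.2% of those elsewhere. Among other genes it was at 49.75% on chromosome 19 and 54.3% elsewhere. Of 508 ZNF genes, whose proteins bind DNA and in large part repress transcription, 263 had H3K9ac alone at the start (51.8%), 80 had both (15.8%, near the 16.7% of all genes), 2 had H4K16ac alone and 163 had neither. H4K16ac was inside 130 of 507 (25.6%). The other chromosomes together had a higher share than chromosome 19, where many of these genes lie in clusters. There, 17 of 246 ZNF genes had H4K16ac inside (6.91%), against 113 of 261 on other chromosomes (43.3%). At the start, 13.01% of the chromosome 19 ZNF genes with H3K9ac also had H4K16ac, against 31.0% elsewhere. Among other genes these shares were 27.5% on chromosome 19 and 31.2% elsewhere. The other genes of chromosome 19 had H4K16ac inside at 26.2% with a median length of 12.7 kb, and other genes of other chromosomes at 48.2% with 25.9 kb. The ZNF genes had median lengths of 23.2 kb on chromosome 19 and 24.7 kb elsewhere.

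WNT, Frizzled and collagen genes seldom had H4K16ac at the start, while HOX genes had it at least as often as all genes. Of 29 WNT ligands and Frizzled receptors, 16 had H3K9ac alone, 12 had neither and 1 had both (3.45%, beside 16.7% of all genes), and that one was WNT5A, with 28 and 9 fragments. FZD7 and FZD2, receptors for WNT ligands, had 25 and 29 H3K9ac fragments and no H4K16ac in the gene. The list's H3K9ac median was 20 fragments, below the 28 of all genes. Of 44 collagens, 11 had H3K9ac alone, 2 both (4.55%), 1 H4K16ac alone and 30 neither (68.2%, beside 43.7%). COL4A1 and COL4A2 share 1 start peak of 37 H3K9ac fragments and had 29 H4K16ac peaks inside each, on chromosome 13, where H4K16ac at starts was rare. HOX genes had both at 9 of 37 (24.3%), H3K9ac alone at 14, H4K16ac alone at 1 and neither at 13. The gene with H4K16ac alone was HOXC12, with 8 fragments. HOXC4, HOXC5 and HOXC6 share their peaks. All 53 clustered protocadherins, adhesion molecules of neurons, had neither mark at the start, and 0 of 53 had either inside.

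Genes of other tissues lay mostly in the class with neither mark, which held 43.7% of all genes. Over all genes 37.6% had H3K9ac alone and 1.97% H4K16ac alone. In the keratin and chemokine lists these classes were about equal, on few genes. In ion channels and interleukins H3K9ac alone was the more frequent. Of 392 olfactory receptors, 388 had neither mark, 4 had H4K16ac alone and 0 had H3K9ac. OR2B6 had 13 H4K16ac fragments. Of 149 keratins and keratin-associated proteins, 138 had neither, 5 H4K16ac alone, 4 H3K9ac alone and 2 both. KRT8 and KRT18, the keratins of simple epithelia, share a start peak of 38 H3K9ac fragments, and KRT7 had 30 and 10. Voltage-gated ion channels had neither at 100 of 118, H3K9ac alone at 12, H4K16ac alone at 6 and both at 0. Interleukins and their receptors had H4K16ac alone at 6 of 84, both at 8 and H3K9ac alone at 14. IL2RB had 14 H4K16ac fragments and no H3K9ac at its start, and IL6 had both, with 21 and 11. Chemokines and their receptors had H4K16ac alone at 3 of 53, H3K9ac alone at 3 and neither at 46. The H4K16ac summits of these lists had medians of 8 to 9 fragments, close to the 9 of all genes.

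The class with H4K16ac alone at the start was small, and its genes were short, with a median length of 12.1 kb. The medians were 33.3 kb with H3K9ac alone, 24.5 kb with both marks and 17.5 kb with neither. Of the 390 genes with H4K16ac alone, 183 had no H3K9ac peak in the gene or within 10 kb. The strongest of these by q were C1orf226 and SPATA46, which share a peak of 16 fragments, TAS2R4, a bitter taste receptor (12 fragments), BIN2, a membrane-bending protein of blood cells (14), SLC22A7, an organic anion transporter (13), and TMEM239 (12). Their folds over local background were 4.54 to 4.95. The peaks of TAS2R4, SLC22A7 and TMEM239 lay more than 1 kb past the RefSeq start and counted through the authors' start. Of the 7469 genes with H3K9ac alone, 1571 had no H4K16ac peak in the gene or within 10 kb. The strongest were PRH1, PRH1-TAS2R14 and SMIM10L1, which share a peak of 55 fragments, PPCS and ZMYND12, which share one of 47, and MIS12 with 48. The shared peaks cannot be given to 1 gene. PPCS makes a precursor of coenzyme A. Folds were 12.9, 14.9 and 13.9 (MIS12).

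The strongest starts with both marks were NUP98 and PGAP2, RRM1, S100A13 and CHTOP, and MYL12B. NUP98, a nuclear pore protein, and PGAP2 share an H3K9ac peak of 109 fragments and an H4K16ac peak of 45. RRM1, the large subunit of ribonucleotide reductase, had 106 and 34. Local background at these chromosome 11 starts was 8.59 times (NUP98) and 7.02 times (RRM1) the lowest background of the H3K9ac list, and the H3K9ac folds there were 5.80 and 6.82. S100A13, a calcium-binding protein, and CHTOP share an H3K9ac peak of 57 fragments at a fold of 10.3. Their H4K16ac peaks held 20 and 18 fragments at folds of 6.52 and 4.28. MYL12B had 50 and 12 at folds of 9.87 and 4.93.

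Some genes were covered inside over much of their length. H4K16ac peaks covered 57.2% of the inside of RHOG, a small GTPase, 50.5% of PGAP2 and 42.2% of BIRC3, an inhibitor of apoptosis. RHOG and BIRC3 lie on chromosome 11 where the local H3K9ac background was 9.33 and 8.76 times its floor. CYB5D2 on chromosome 17 had 37.1% at a background of 1.48 times the floor at its start. PDGFRB, a receptor for platelet-derived growth factor, had 27 H4K16ac peaks over 47.6% of its inside and neither mark at its start. MACF1, a large cytoskeletal linker (67 peaks), MYLK, the myosin light chain kinase (60), GLIS1 (58), NAV2 (55), PDZD2 (50) and ZFHX3 (50) had the most H4K16ac peaks inside without a mark at the start. Of these genes, MACF1, NAV2 and ZFHX3 had H3K9ac at another RefSeq start, and MYLK and ZFHX3 had H4K16ac at another one. For H3K9ac the inside was most covered in CDKN2C, the cyclin-dependent kinase inhibitor p18 (55.7%), followed by LOC128125822 (46.6%), LOC124905135 (46.5%), ZBTB7B (46.2%), MIDN (44.8%) and GATA2 (42.9%). GATA2, a blood and endothelial transcription factor, had neither mark at the start used for sorting and 3 H3K9ac peaks inside. Both marks were at another RefSeq start of GATA2. An inside peak of a long gene can lie at an alternative start. Of all inside H3K9ac peaks, 17.6% reached within 1 kb of another RefSeq start, against 1.43% of inside H4K16ac peaks.

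The granulosa genes gave a mixed picture. Of 12 granulosa markers 9 had neither mark at the start (75%, beside 43.7% of all genes), so that the peak lists give little support at starts to the labelled cell type. The list of 24 genes of granulosa identity and hormones had H3K9ac at 10 starts (41.7%, beside 54.4% of all genes) and neither mark at 13 (54.2%). FOXL2, the granulosa transcription factor, had 24 H3K9ac fragments and no H4K16ac. INHA, the inhibin alpha subunit, had 26 of H3K9ac and 10 of H4K16ac. AMHR2 had 11 of H4K16ac and no H3K9ac, from the peak that overlaps the printed stretch. INHBA, FST, CYP19A1, FSHR, NR5A1 and GATA4, which encode an activin subunit, follistatin, aromatase, the FSH receptor and 2 transcription factors of steroidogenic cells, had neither mark at the start or inside. H3K9ac was also rarer at the starts of markers of other cells than over all genes (54.4%). H3K9ac was at 1 of 8 theca and stroma markers (DCN, 8 fragments), 2 of 9 oocyte markers (ZP3 and GDF9), 0 of 7 endothelial, 0 of 8 blood, 1 of 7 epithelial (MUC1) and 1 of 8 neuron markers (GAD1). H4K16ac was at 3 of the 8 blood markers (LCK, SPI1 and CSF1R, 7 to 10 fragments), at ZP3 and at MUC1, beside 18.7% of all genes. It was inside 5 of the 7 endothelial markers and 1 of the 12 granulosa markers, beside 46.2% of all genes.

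Steroid synthesis genes had both marks at 4 of 30 (13.3%, beside 16.7% of all genes), H3K9ac alone at 6 (beside 37.6%), H4K16ac alone at 2 and neither at 18 (60.0%, beside 43.7%). CYP11A1 had 36 H3K9ac and 13 H4K16ac fragments, and 7 H4K16ac peaks inside. STARD3, a cholesterol carrier, had 37 and 9, and FDXR, which passes electrons to CYP11A1, 29 and 9. HSD17B1, which makes estradiol from estrone, had 10 of H4K16ac alone, with an H3K9ac peak inside. CYP21A2 had 11 of H4K16ac alone, and it has a near-identical pseudogene copy, which makes its reads uncertain. STAR and HSD3B2 had neither mark at the start or inside. The genes that supply cholesterol had both at 10 of 30 (33.3%), H3K9ac alone at 17 (56.7%) and neither at 3 (10.0%), and a difference between the lists was not tested. FDPS, farnesyl diphosphate synthase, had 48 and 10 fragments, and CYP51A1, lanosterol demethylase, 49 of H3K9ac alone. For PPAR signalling and fatty acid oxidation the counts were 7, 14, 0 and 9 of 30 (both, H3K9ac alone, H4K16ac alone, neither). PPARG, the nuclear receptor, had 16 H3K9ac fragments alone. Its coactivator PPARGC1A had neither at the start but 8 H3K9ac and 7 H4K16ac peaks inside. For butyrate transport, receptors and metabolism they were 4, 3, 0 and 7 of 14. SLC16A1, the monocarboxylate transporter MCT1, had 47 and 11 fragments. Apoptosis genes had both at 11 of 26 (42.3%) and H3K9ac alone at 12 (46.2%), and the inflammatory list both at 5 of 26 (19.2%), H3K9ac alone at 10 (38.5%) and H4K16ac alone at 1, which was IL1A with 8 fragments.

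The share of H3K9ac starts that also had H4K16ac differed between chromosomes. It was 6.44% on chromosome 4 (23 of 357, interval 4.13 to 9.51), 10.1% on chromosome 13 (18 of 178) and 11.9% on chromosome 14 (43 of 363). The other chromosomes lay between 21.7% (chromosome 8) and 39.3% (chromosome 22), with 27.0% on X. The same 3 chromosomes had low H3K9ac summits, with medians of 20, 24 and 20 fragments at starts against 25 to 32 elsewhere. Over the 23 chromosomes, which share the 2 libraries and their depth, the Spearman rank correlation between median H3K9ac fragments and the share was 0.80. Local background at H3K9ac peaks was above its floor at 51.9%, 71.5% and 47.7% of the peaks on chromosomes 4, 13 and 14, and at 78.5% to 99.3% elsewhere. In the 5 groups of H3K9ac summit height, from lowest to highest, 5.48%, 11.3%, 17.1%, 13.5% and 14.3% of the starts on these 3 chromosomes had H4K16ac, against 14.2%, 24.1%, 33.9%, 38.9% and 48.01% on the others. The upper groups hold few genes on the 3 chromosomes, 52 and 21, and heights also differ within a group. The part that summit height and background have in the shares was not tested. Without the 3 chromosomes, 3236 of 18138 genes had both marks at the start (17.8%), 6655 had H3K9ac alone and 386 H4K16ac alone, so the class sizes changed little.

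**Figure D5:**
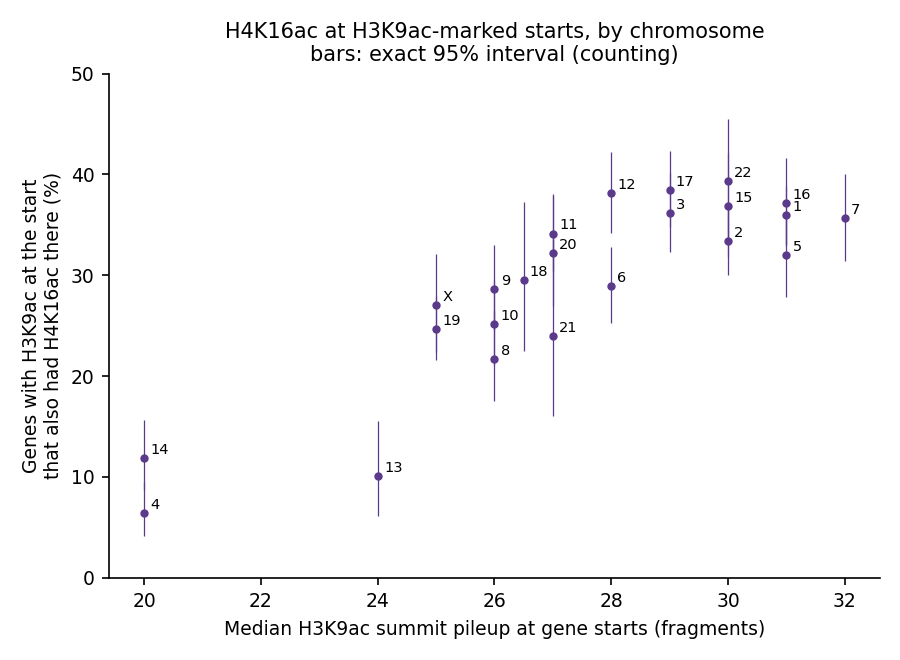
Percent of genes with H3K9ac at the start that also had H4K16ac there, for each of 23 chromosomes, against the median number of H3K9ac fragments at the summits of those starts, with exact 95% intervals. Chromosomes 4, 13 and 14 lie at 6.44% to 11.9%, below the 21.7% to 39.3% of the others.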

How the data were processed

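Chromatin from untreated KGN cells was immunoprecipitated and sequenced, with 1 library per mark. CASAVA 1.7 and MACS2 2.1.0 are named in the submitters' processing notes. Which aligner, duplicate filter or annotation release was used is not given in the sources used here. The deposited lists are MACS2 narrow peaks with several summits per peak, per the file headers. The fold the authors deposited is a ratio, of the pileup at the summit over the local background. The deposited p and q columns are −log10 values from MACS2. These are the authors' values for each peak and were used to describe, rank and filter peaks within a list.

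Rows sharing bases were merged. The summit pileup k and background λ were solved from fold = (k + 1)/(λ + 1) and the Poisson p, with a tolerance of 0.01 in −log10 p. This succeeded for 100% of the summits of both marks. Depth was taken from the lowest background, the fragment length and an effective genome of 2700000000 bp. The processing notes name hg19, but the median distance from the authors' gene starts to those of RefSeq GRCh38.p14 was 61 bp, so coordinates are read as GRCh38. Of 19974 RefSeq protein-coding genes on chromosomes 1 to 22 and X, 18519 had a strand. A further 1327 had no peak near either end and count as neither, and 128 were left out. A start was the RefSeq start or the authors' start within 100 kb of it, which was known only for the 11691 genes named by a peak in these 2 lists. Inside ran from 1 kb past the start to the end, for peaks at no start, and 1232 genes under 2 kb have no inside. Peaks overlapped when they shared 1 bp.

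The members and gene lists were chosen with earlier results of these data known. Genes were named by rule. The rule takes the 6 strongest starts of each class by −log10 q (the alone classes without the other mark within 10 kb), the 6 most covered insides of genes of at least 10 kb, the 6 genes with most H4K16ac peaks inside and no mark at the start, up to 4 members of each class per list, and a set of anchor genes. Alternatives changed the start window, the limits of the lists, the start used and the overlap. Scripts ran in Python 3.11.15 with pandas 2.3.3, numpy 2.4.6, scipy 1.17.1 and matplotlib 3.10.9 and were tested on simulated data. The input samples were not analysed here, and the butyrate lists were not used. One gene list and some genes the rule names are not reported here.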

Additional observations from a re-analysis of the deposited data

How the results depend on the processing

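No paired analysis was possible because there is 1 library per mark. A gene count was taken as moved when it changed by more than 1.5 times, and a share of peaks when it left the exact 95% interval of its main value, which is narrow over so many peaks. By these limits 31 of 57 alternative values moved and 26 did not, and the cause was not tested beyond what each alternative changes. With a 2.5 kb window, 5068 genes had both marks at the start and 685 had H4K16ac alone there, 1464 had both inside and 493 H3K9ac alone inside. H3K9ac peaks then lay at starts in 73.2% and inside in 15.6%, and H4K16ac peaks in 11.3% and 65.5%. At q 0.05 in both lists, the counts were 1894 (both at the start), 177 (H4K16ac alone at the start) and 1675 (H3K9ac alone inside). H4K16ac peaks were then at starts in 7.18%, inside in 66.5% and overlapping H3K9ac in 7.61%, and 9.60% of H3K9ac peaks overlapped H4K16ac. With equal numbers of peaks these values were 1617, 126, 1908, 7.77%, 65.4%, 8.42% and 8.17%, and H4K16ac alone was inside 3510 genes. With the authors' start alone, H3K9ac was at starts in 52.7% and inside in 33.1% of peaks, and H4K16ac in 4.64% and 69.2%. With every RefSeq start, an alternative chosen after seeing the data, the start shares were 65.2% and 6.26%. With an overlap of 50% of the narrower peak, 13.7% of H3K9ac and 4.49% of H4K16ac peaks overlapped. Leaving out chromosomes 4, 13 and 14, also chosen after seeing the data, moved none of the 6 gene counts by more than 1.5 times. The H4K16ac summits hold few fragments (5 to 95% range 6 to 13), so a start without an H4K16ac peak may carry the mark below the limit of the list.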
